A study of Mus musculus with 33 samples.

Results

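Cirbp and Rbm3, the RNA-binding proteins that mild cooling induces, were followed through birth in mouse lung and liver together with the SR splicing factors Srsf2, Srsf3, Srsf5 and Srsf7. Every probe set annotated to these 6 genes, or to older names such as Sfrs2, was taken, which gave 7 of the 12422 probe sets of the array for 5 of the 6 genes. Srsf7 had no probe set listed under its name. The genes were chosen by the measured signals themselves, because Cirbp was higher and Srsf2 lower after birth, so that these 2 genes are described here without a test. Fetal lungs are the baseline of that choice, which leaves no comparison of theirs independent of it. Rbm3, Srsf3 and Srsf5 were tested. Whole lung and whole liver of C57 mice (C57/BL, C57/Black or BL/57 in the sample labels, and C57B/6J in the study's methods) were measured on 33 Affymetrix MGU74Av2 arrays, 3 in each of 11 groups. The room-air series of lungs (21% oxygen) began on fetal day 21 (F21) and went on with newborns of 2, 6, 12 and 24 h. Lungs in 10% oxygen were taken at F21, after the dam had spent 12 h in 10% oxygen, and from newborns delivered into 10% oxygen at 2 and 6 h. Livers were taken in room air at F21, 2 h and 6 h. All animals were wild type, and each array stood for 1 mouse. Whether the 3 mice of a group were littermates is not given in the sources used here, so that the p-values measure only the spread between these samples. The body temperature of the pups is not given in the sources used here either.

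Cirbp and Rbm3 are small proteins with 1 RNA recognition motif and a glycine-rich tail. Cells make more of both a few degrees below body temperature, and both are known to bind mRNAs and to affect their stability, translation and polyadenylation. SR proteins carry RNA recognition motifs and a tail rich in arginine and serine. They bind exons, recruit the spliceosome to nearby splice sites, and are switched by the Clk and Srpk kinases, which phosphorylate the tail. Transcripts of SR proteins are also known to be spliced into forms with a premature stop codon, which nonsense-mediated decay removes. At birth the pup leaves the warmth of the uterus, the lung fills with air and the liver takes over the supply of glucose.

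The upstream sequences of the members on which the results turned are shown to let a reader place the genes. They are the 250 bases before the annotated start, credited to RefSeq (GRCm38.p6), and 5 of the 6 genes had such a window. Capitals mark TCCCCGCC, the letters described for the mild cold response of Cirbp, and CCAAT, the letters of the CCAAT box, each searched on both strands. Cirbp had an upstream window at chr10:80167589-80167838 (plus strand), Srsf2 at chr11:116853095-116853344 (minus strand) and Srsf5 at chr12:80945249-80945498 (plus strand).
Cirbp: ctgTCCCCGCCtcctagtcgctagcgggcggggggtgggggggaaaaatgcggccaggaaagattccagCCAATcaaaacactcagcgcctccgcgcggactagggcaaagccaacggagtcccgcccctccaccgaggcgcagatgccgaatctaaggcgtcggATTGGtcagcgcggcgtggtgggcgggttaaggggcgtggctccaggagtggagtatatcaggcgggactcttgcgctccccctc
Srsf2: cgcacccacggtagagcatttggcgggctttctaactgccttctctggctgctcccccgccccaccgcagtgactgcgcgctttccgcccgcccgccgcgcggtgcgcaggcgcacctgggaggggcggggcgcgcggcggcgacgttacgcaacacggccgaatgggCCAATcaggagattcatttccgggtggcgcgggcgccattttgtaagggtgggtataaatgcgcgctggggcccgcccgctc
Srsf5: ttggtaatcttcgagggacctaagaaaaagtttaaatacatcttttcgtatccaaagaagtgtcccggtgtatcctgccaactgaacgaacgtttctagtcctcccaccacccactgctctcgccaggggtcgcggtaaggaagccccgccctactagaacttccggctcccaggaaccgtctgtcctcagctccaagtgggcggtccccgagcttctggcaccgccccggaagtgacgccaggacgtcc
The Cirbp window held 1 match to TCCCCGCC, which began at position -247 from the start, and 2 to CCAAT. A second annotated start of Cirbp held neither. Srsf2 held 1 CCAAT and no TCCCCGCC, and Srsf5 held neither. Srsf3 held 1 CCAAT, and Srsf7 1 TCCCCGCC. Of 32851 mouse windows of the same length, 4.64% held TCCCCGCC and 33.8% held CCAAT. Such matches describe the letters alone.

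The values were MAS5 signals on a linear scale, with each array scaled to a target of 100. Signals under 10 were set to 10, and groups were compared as log2 signals. Only probe sets among the top 40% of an array on at least 3 arrays of a fit were tested with limma, 6931 of them in lung, 5693 in liver and 7640 in the fit of both organs, and a probe set passed at a Benjamini-Hochberg adjusted p under 0.05. Of the 7 member probe sets, 6 passed this filter in each fit. Lung arrays held 17960.9 to 60596.8 of the surfactant gene Sftpc, against 35.6 to 125.6 in liver, and liver arrays 44095.4 to 56444.7 of albumin (Alb), against 7.4 to 2160 in lung. The summed signal of 8 hepatocyte genes spanned 201.1 to 3145 in fetal lungs of 10% oxygen and reached at most 511.3 in any other lung group. The source of this signal, and its part in differences from these fetal lungs, was not tested. The lungs of 10% oxygen stood apart. Their Gapdh 3' to 5' signal ratio, a measure of RNA integrity, spanned 1.21 to 9.40, while room-air lungs spanned 0.734 to 1.15 and livers 1.30 to 1.86. Their arrays also correlated less within a group (r 0.749 to 0.825 over probe sets) than those of room air (0.896 to 0.950). Room-air lungs also differed by age in the spiked BioB control, which spanned 226.6 to 529.4 (F21), 75.9 to 110.7 (2 h), 258.8 to 501.4 (6 h), 73.9 to 99.5 (12 h) and 109.8 to 188.3 (24 h). Its part in the differences between these ages was not tested. In lungs of 10% oxygen BioB spanned 384 to 413.8 (F21), 370.1 to 409.7 (2 h) and 382 to 431.9 (6 h). The Gapdh ratios of room air and 10% oxygen did not meet, so that oxygen level and RNA integrity cannot be told apart between them. The part of either measure in differences between oxygen levels was not tested. Gapdh ratios of room-air lungs and livers did not meet either, so that organ and RNA integrity cannot be told apart between them. Since whole organs were measured, fewer cells of a type and less RNA per cell cannot be told apart.

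Cirbp was higher at every newborn time in lungs of room air than in fetal lungs. On the 3 arrays of F21 its signal was 150.1, 183.4 and 204.2. At 2 h it was 416.1, 416.3 and 673.7, and at 6 h 474.4, 509.2 and 598.5. Every newborn array of these ages lay above every fetal array. At 12 h the signals were 481.3, 644.5 and 645.2, and at 24 h 508.7, 713.7 and 884.3, again all above F21. The mean went from 179 ± 27.3 (SD, n = 3) at F21 to 702 ± 188 at 24 h. On the log2 scale the differences from F21 were 1.46 at 2 h, 1.56 at 6 h, 1.72 at 12 h and 1.95 at 24 h, each with a standard error of 0.39, or 2.75 to 3.85 times the fetal level. Of all tested probe sets, 14.7% at 2 h, 9.81% at 6 h, 10.6% at 12 h and 8.48% at 24 h were likewise higher without overlap. Because the gene was chosen for this pattern, nothing is read from these shares. Between successive newborn ages the Cirbp arrays overlapped, with log2 differences of 0.10, 0.16 and 0.23.

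In lungs of 10% oxygen the Cirbp arrays were spread more widely and the ages overlapped. The 3 fetal signals were 74.1, 134.8 and 323.6, those at 2 h 255.0, 326.6 and 534.0, and those at 6 h 251.7, 264.6 and 582.4. A single fetal array at 323.6 accounted for the overlap, and the other fetal arrays lay below all 6 newborn arrays. The log2 difference from F21 was 1.26 at 2 h and 1.19 at 6 h (standard error 0.39). At F21 the Cirbp signal went down as the Gapdh ratio went up. The fetal array of 323.6 had a ratio of 1.21, that of 134.8 a ratio of 6.79 and that of 74.1 a ratio of 9.40. At 2 h the order differed, with 534 at a ratio of 3.01, 326.6 at 1.81 and 255 at 5.39. At 6 h the array of 582.4 had the lowest ratio, 1.37, while those of 264.6 and 251.7 had ratios of 5.82 and 4.72. The part of RNA integrity in these values was not tested. With the ratio as a covariate the log2 differences from F21 were 1.0 at both 2 h and 6 h. The plot of Cirbp signal against the Gapdh ratio shows these arrays beside those of room air. At F21 the arrays of both oxygen levels overlapped (10% oxygen minus room air log2 -0.27, standard error 0.39). In newborns it was lower in 10% oxygen by log2 -0.46 at 2 h and -0.63 at 6 h, with overlapping arrays.

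**Figure D1:**
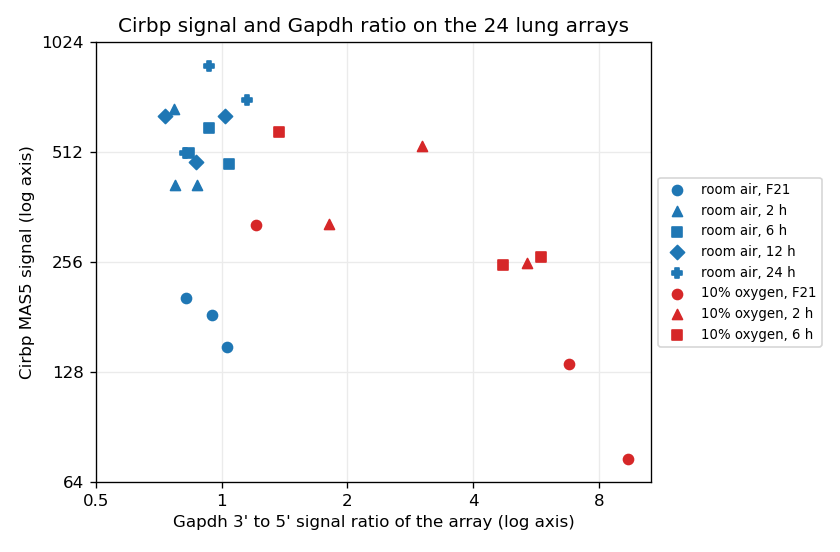
Cirbp signal (log axis) against the Gapdh 3' to 5' ratio (log axis) of each of the 24 lung arrays, blue for room air and red for 10% oxygen, with a marker for each age. Ratios of room air lie between 0.734 and 1.15, and within 10% oxygen at F21 the signal is 323.6 at a ratio of 1.21 and 74.1 at 9.40.

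Liver showed the same direction for Cirbp at a lower signal. Fetal livers gave 81.2, 107.4 and 141.3, livers at 2 h gave 183.8, 213.6 and 245.9, and livers at 6 h gave 231.3, 261.6 and 265.8. All newborn livers were above all fetal livers, a pattern shared by 8.40% of the tested probe sets at 2 h and 9.06% at 6 h. The log2 difference from F21 was 0.99 at 2 h and 1.24 at 6 h, with a standard error of 0.23. The change in lung exceeded that in liver by log2 0.47 at 2 h and 0.33 at 6 h, each with a standard error of 0.51. At F21 the signal was higher in every lung than in any liver (log2 0.73, standard error 0.36, and 0.28 with the Gapdh ratio as a covariate). The ratios of these lungs (0.824 to 1.03) and livers (1.34 to 1.86) did not meet. The fit with the covariate therefore extrapolates between the organs, and nothing is read from it. From lowest to highest, the mean signals ran from fetal liver (110) through both groups of fetal lung (178 in 10% oxygen and 179 in room air), newborn liver (214 and 253) and newborn lung of 10% oxygen (366 and 372) to newborn lung of room air (502 to 702). Each of the 10 neighbouring pairs in that order overlapped between arrays.

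Rbm3, the closest relative of Cirbp among the members, moved in the same direction in liver and room-air lung. Its single probe set is annotated to Rbm3 and to its pseudogene Rbm3-ps, and the signal cannot be divided between them. Fetal livers gave signals of 187.8, 215.8 and 251.8, and livers at 2 h gave 339.7, 511.2 and 684.9. Every liver at 2 h was above every fetal liver, as in 8.40% of all tested probe sets. Rbm3 rose by log2 1.18 (standard error 0.25, 2.27-fold, limma adjusted p = 0.0426), where 0.913% of 5693 probe sets passed. That call was lost in 5 of the 6 fits without 1 array. These were the fits without any 1 of the fetal livers (adjusted p = 0.164, 0.0696 and 0.130), without the second 2 h array (log2 0.94, adjusted p = 0.204) or without the third (adjusted p = 0.168). At 6 h the livers gave 315.8, 430.6 and 467.6, again all above F21, as in 9.06% of all tested probe sets. The difference of log2 0.88 did not pass (limma adjusted p = 0.105, with 1.84% of probe sets passing).

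In lungs of room air Rbm3 measured 206.5, 256 and 372.6 at F21 and 461.2, 676.0 and 684.6 at 2 h. The groups did not overlap, as in 14.7% of all probe sets, which were likewise higher. The difference of log2 1.15 (standard error 0.34) did not pass (limma adjusted p = 0.0519). At 6 h the signals of 334.5, 386.0 and 471.8 overlapped those of F21. At 12 h they were 430.5, 483.7 and 616.2 and at 24 h 550.2, 593.4 and 729.4, all above F21, as in 10.6% and 8.48% of all probe sets. The differences from F21 were log2 0.54 at 6 h, 0.90 at 12 h and 1.20 at 24 h, and none passed (adjusted p = 0.584, 0.235 and 0.106). The levels at F21 were near those of liver (lung minus liver log2 0.32, adjusted p = 0.522), and the change at 2 h in lung minus that in liver was -0.04 (standard error 0.46, adjusted p = 0.992).

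Rbm3 was lower at 2 h in lungs of 10% oxygen than in lungs of room air. Its signals in 10% oxygen were 115.4, 267.2 and 340.4 at F21, 179.3, 341.3 and 448.3 at 2 h, and 217.1, 277.9 and 323.5 at 6 h. These ages overlapped each other. All 3 arrays at 2 h lay below the 3 of room air, a log2 difference of -0.99 (standard error 0.34, limma adjusted p = 0.0455) in a comparison where 16.8% of all probe sets passed. The groups did not overlap, and neither did those of 20.0% of all probe sets that were lower. The call did not hold without the first or the third room-air array (adjusted p = 0.140 and 0.152) or without the second or the third of 10% oxygen (0.0643 and 0.251, the last at log2 -0.61), which makes 4 of 6 such fits. At 2 h the Gapdh ratio was 0.77 to 0.873 in room air and 1.81 to 5.39 in 10% oxygen, and BioB 75.9 to 110.7 and 370.1 to 409.7. With the ratio as a covariate the difference was -1.78 (limma adjusted p = 0.00185). Because the ratios did not meet, that fit extrapolates between the oxygen levels and nothing is read from it. The part of RNA integrity in this difference was not tested. Unlike Cirbp, Rbm3 was lowest at F21 on the array with the lowest ratio (115.4 at 1.21) and highest on that with the highest ratio (340.4 at 9.40). Differences from F21 within 10% oxygen were log2 0.46 at 2 h and 0.30 at 6 h (adjusted p = 0.5 and 0.668). The change at 2 h in room air minus that in 10% oxygen was log2 0.68 (standard error 0.48) and did not pass (adjusted p = 0.558).

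**Figure D2:**
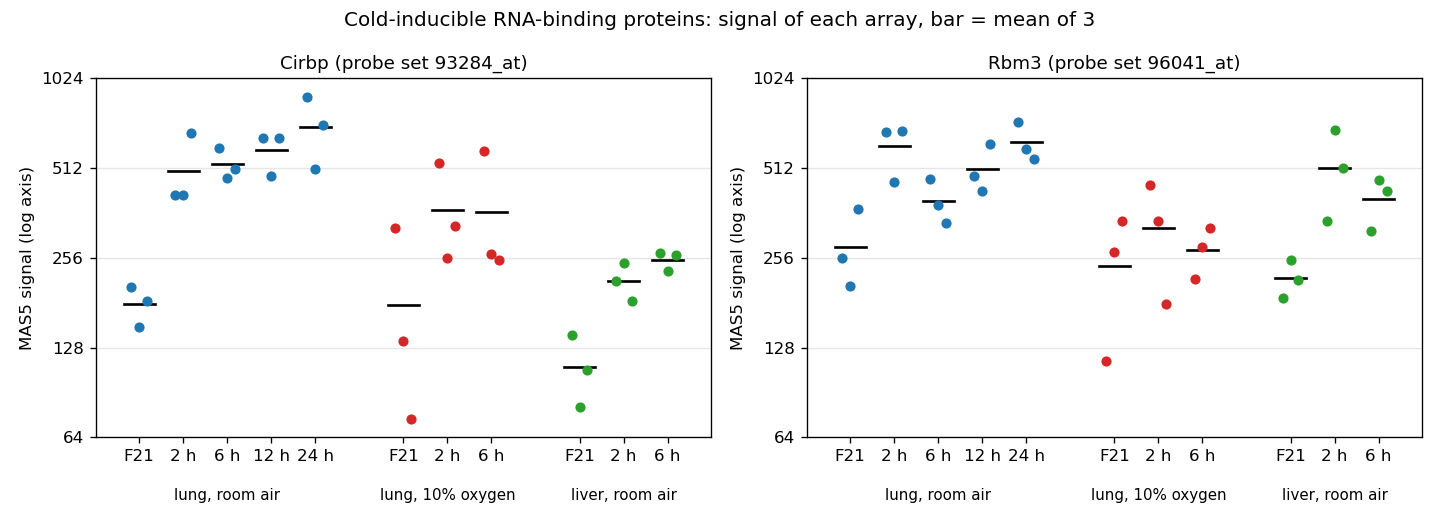
MAS5 signal (log axis) of Cirbp and Rbm3 on each of the 33 arrays, by organ, oxygen level and age, with a black bar at the mean of the 3 arrays of a group. Cirbp in room-air lung lies between 150.1 and 204.2 at F21 and between 416.1 and 884.3 after birth, and Rbm3 in liver goes from 187.8 to 251.8 at F21 to 339.7 to 684.9 at 2 h.

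Srsf5, an SR protein of constitutive and alternative splicing, was highest at 2 h in lungs of room air. At F21 its signals were 196.5, 294.6 and 407.7, and at 2 h they were 588.9, 691.9 and 1030.4. All arrays at 2 h were above all fetal arrays, as in 14.7% of all tested probe sets. Srsf5 rose by log2 1.38 (standard error 0.32, 2.61-fold, limma adjusted p = 0.0143). Of the 3 member probe sets tested in this comparison it alone passed, where 4.24% of the 6931 probe sets passed in either direction. The call was lost without the second fetal array (log2 1.11, adjusted p = 0.0855) and without the second 2 h array (log2 1.15, adjusted p = 0.0702).

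After 2 h the Srsf5 signal in room air was lower again. It was 275.0, 357.1 and 561.4 at 6 h, and 246.4, 279.4 and 316.2 at 12 h, both overlapping F21. From 2 h to 6 h the log2 difference was -0.98, which did not pass (limma adjusted p = 0.0956, with 3.46% of probe sets passing). At 24 h the signals were 441.0, 441.8 and 739.7. They lay above every fetal array, as in 8.48% of all probe sets, and above every array at 12 h, as in 5.61%. The differences from F21 were log2 0.41 at 6 h, -0.04 at 12 h and 0.87 at 24 h, and none passed (adjusted p = 0.700, 0.989 and 0.269). The share of all probe sets that passed was 1.02% at 6 h, 1.34% at 12 h and 0.577% at 24 h, and between 12 h and 24 h it was 0.

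In 10% oxygen the ages of Srsf5 were close together. The signals were 277.7, 283.4 and 464.3 at F21, 260.9, 383.7 and 454.9 at 2 h, and 220.1, 227.6 and 392.2 at 6 h. All 3 ages overlapped, with log2 differences from F21 of 0.11 and -0.30 (limma adjusted p = 0.905 and 0.650), where 2.65% and 6.31% of probe sets passed. At 2 h Srsf5 was lower in 10% oxygen than in room air on every array, as were 20.0% of all probe sets. The log2 difference was -1.07 (standard error 0.32, limma adjusted p = 0.0248), where 16.8% of probe sets passed. As for Rbm3, the Gapdh ratios and BioB signals of these arrays did not meet, and their part was not tested. Leaving out the first room-air array gave an adjusted p of 0.0533, and leaving out the second room-air array or the third array of 10% oxygen gave 0.115 each, at log2 -0.84. The test of the difference itself, the change at 2 h in room air minus that in 10% oxygen, gave log2 1.28 (standard error 0.45) and did not pass (adjusted p = 0.242, where 0.476% of probe sets passed). A difference of Srsf5 between the oxygen levels in the change with birth was therefore not shown.

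In liver the mean Srsf5 signals after birth lay above that of F21, in the direction of room-air lung at 2 h. Fetal livers gave 157.3, 186.1 and 203.0, livers at 2 h 279.4, 284.2 and 344.4, and livers at 6 h 184.9, 232.8 and 316.0. The livers at 2 h were all above F21, as in 8.40% of all tested probe sets, and the log2 difference of 0.73 (standard error 0.22) did not pass (limma adjusted p = 0.176). At 6 h it was 0.40 (adjusted p = 0.463). At F21 the lung level exceeded that of liver by log2 0.66 (adjusted p = 0.104), and the change at 2 h in lung minus that in liver was 0.65 (adjusted p = 0.591, where 0.929% of probe sets passed).

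Srsf2, also known as SC35 and a defining protein of nuclear speckles, was measured by a bright and a dim probe set, and they disagreed. On the bright one the signals in room-air lung were 2547.8, 2886.6 and 3164.6 at F21 and 1124.1, 1187.9 and 1310.2 at 2 h. Every array at 2 h was well under the fetal arrays. The log2 difference was -1.24 (standard error 0.18), 2.37 times lower, and -1.0 after quantile normalization. Of all tested probe sets, 16.1% were lower at 2 h without overlap, and since Srsf2 was chosen for this pattern nothing is read from it. At 6 h the signals were 2416.4, 2717.9 and 3651.7, a log2 difference of 0.01 from F21. At 12 h they were 1877.8, 2069.3 and 2228.2, and at 24 h 2065.9, 2135.4 and 2402.7. Both of these groups lay below F21 on every array, by log2 -0.48 and -0.38, as did 10.4% and 9.80% of all tested probe sets.

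On the dim probe set of Srsf2 no such low point was seen at 2 h in room air. Its signals were 109.9, 121.4 and 160.2 at F21 and 137.1, 188.4 and 219.8 at 2 h. The groups overlapped, and the log2 difference was 0.47 (standard error 0.35). At 6, 12 and 24 h the differences were -0.14, -0.20 and -0.25, all with overlap. Over the 24 lung arrays the log2 signals of the 2 probe sets had a correlation of 0.03. The suffix of both names marks probes that can match more than 1 transcript, and which transcript each reads was not determined here.

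In 10% oxygen the bright Srsf2 probe set began higher and was lower after birth at both ages. It measured 3532.1, 3628.5 and 4322.7 at F21, 2146.4, 2174.7 and 2194.5 at 2 h, and 1651.3, 1865.2 and 2701.1 at 6 h. No newborn array reached the fetal range, with log2 differences of -0.81 and -0.91 (standard error 0.18), as 9.49% and 10.3% of all tested probe sets were lower without overlap. Against the fetal lungs of room air the same newborn groups differed by -0.39 and -0.49. The fetal lungs of 10% oxygen were above those of room air on every array, by log2 0.42, as were 12.9% of all probe sets. The dim probe set was lower than its fetal level at 2 h without overlap (log2 -1.13) and at 6 h with overlap (-0.59). At 2 h the probe sets went opposite ways between the oxygen levels, with the bright one higher in 10% oxygen (log2 0.85) and the dim one lower (-1.16), both without overlap, as in 17.5% and 20.0% of all probe sets. After quantile normalization the bright probe set in 10% oxygen differed from F21 by -0.53 at 2 h and -0.56 at 6 h.

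In liver neither Srsf2 probe set was lower after birth. The bright one gave 1526.2, 1581.3 and 2004.5 at F21, 1568.0, 2196.7 and 2487.0 at 2 h, and 1769.8, 1994.9 and 2326.2 at 6 h. The ages overlapped, with log2 differences from F21 of 0.27 and 0.25 on the bright and 0.51 and 0.48 on the dim probe set. The change at 2 h on the bright probe set in lung minus that in liver was log2 -1.52 (standard error 0.26), given without a test. At F21 the bright probe set was higher in lung than in liver on every array, by log2 0.76 (standard error 0.19), as were 25.5% of all probe sets, whose median difference was 0.141. The dim probe set differed by log2 0.23 with overlap.

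Among the 11 groups the bright Srsf2 signal was lowest in room-air lung at 2 h (mean 1207) and highest in fetal lung of 10% oxygen (3828). Of 10 neighbouring pairs in that order, 2 did not overlap: the lungs at 2 h and the fetal livers (1704), and the lungs at 24 h (2201) and the fetal lungs of room air (2866). For Rbm3, Srsf5, Srsf3 and the dim Srsf2 probe set, all 10 neighbouring pairs overlapped. Summed marker signals of some cell types differed between ages beside the bright Srsf2 signal in lung. The summed signal of 18 proliferation genes spanned 2112 to 2916 in fetal lungs of room air and 1168 to 1833 by 2 h, with medians under the floor for 1 and 2 of the genes. Of 15 proliferation genes tested, 2 fell at 2 h, 3 were on the positive side and the median log2 difference was -0.66. In fetal lungs of 10% oxygen the sum spanned 3613 to 4712, and by 2 h 1430 to 2178. In liver, where Srsf2 was not lower, it spanned 4776 to 5205 in fetuses and 5604 to 6388 by 2 h. In room-air lung the summed signal of 8 erythroid genes spanned 32640 to 37870 in fetuses and 15540 to 19910 by 2 h, with 1 gene under the floor at each. That sum was set by its brightest genes, since of 6 erythroid genes tested 1 fell, 3 were positive and 3 negative, with a median of -0.05. The summed signal of 6 lung epithelium genes, none under the floor, spanned 54230 to 69690 in fetuses, 31090 to 38100 by 2 h and 70970 to 79680 by 6 h. Of 5 epithelium genes tested, 1 fell at 2 h and 1 rose at 6 h, with medians of -0.51 and 0.23. The mean log2 signal of the 6 was 11.17 in fetuses, 11.12 at 2 h and 11.53 at 6 h. In 10% oxygen, where the bright Srsf2 signal was also lower at 2 h, both sums were higher at 2 h than at F21. There the erythroid sum spanned 23420 to 34480 in fetuses and 38260 to 59500 by 2 h. The epithelium sum spanned 25000 to 47850 and 49850 to 59630. In room-air lung the neutrophil sum spanned 601.4 to 815.1 in fetuses and 1261 to 1768 by 2 h. From F21 to 2 h the mean log2 signal was 7.97 at both ages for endothelium genes and went from 8.87 to 8.77 for fibroblast genes. At 6 h, when the bright Srsf2 signal overlapped its fetal level, the proliferation sum was 1388 to 1579 and the erythroid sum 31250 to 38100. The part of these cells in the Srsf2 values was not tested.

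Srsf3, the smallest SR protein, was dim on both of its probe sets. The brighter, whose suffix marks probes shared within a gene family, ranged from 41.4 to 131.3 over all arrays and passed the filter. In room-air lung its mean was 74.1 ± 18.1 (SD, n = 3) at F21 and 103 ± 24.4 at 2 h. These groups overlapped, and the log2 difference of 0.48 (standard error 0.37) did not pass (limma adjusted p = 0.549). None of its comparisons passed. Its lowest means were 45.6 in liver at 6 h and 47.0 in lung of 10% oxygen at 6 h, at log2 -0.61 and -0.51 from their F21 (adjusted p = 0.628 and 0.446). At 2 h the arrays of 10% oxygen were all below those of room air, as in 20.0% of all probe sets (log2 -0.62, limma adjusted p = 0.262). The dimmer probe set ranged from 6.6 to 71.5, was among the top 40% on 0 of 24 lung and 1 of 9 liver arrays, and was not tested.

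**Figure D3:**
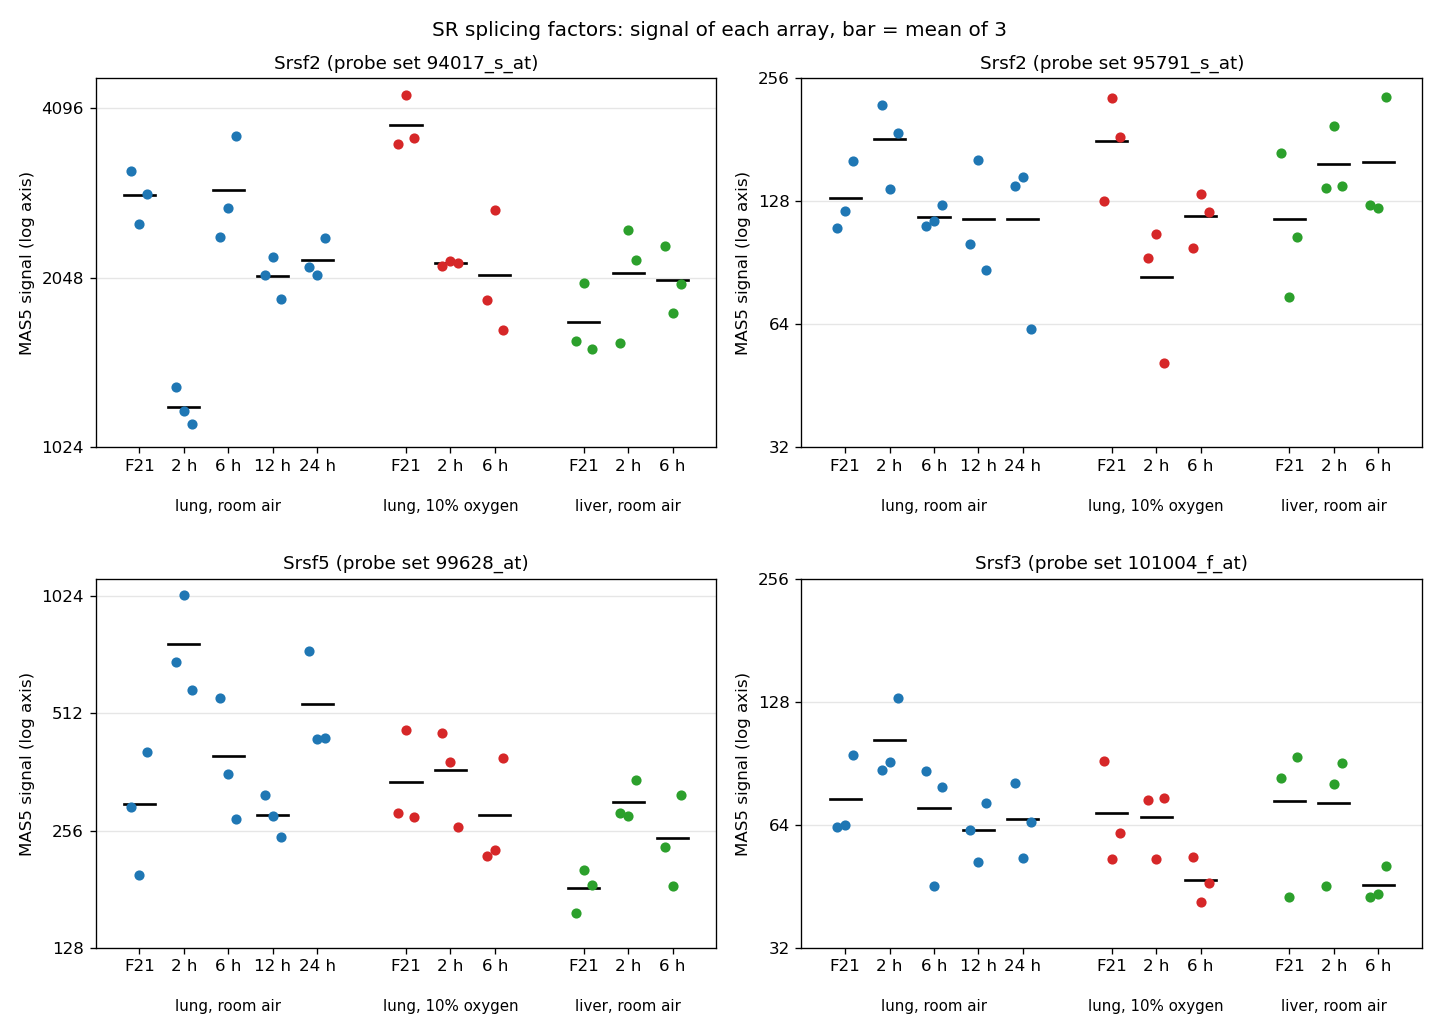
MAS5 signal (log axis) of the probe sets of Srsf2, Srsf5 and Srsf3 on each of the 33 arrays, by organ, oxygen level and age, with a black bar at the mean of the 3 arrays of a group. The bright Srsf2 probe set lies at 1124.1 to 1310.2 in room-air lung at 2 h and the dim one at 137.1 to 219.8, and Srsf5 reaches 588.9 to 1030.4 at that age.

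Counted together, the tested members gave few calls. With Cirbp and Srsf2 untested, Srsf5 at 2 h was the only call in 12 tests of newborn room-air lung against F21. In liver, Rbm3 at 2 h was the only call in 6 tests. Of all probe sets, 0.577% to 4.24% passed in these comparisons of room-air lung and 0.913% to 1.84% in those of liver. In so few tests a single call already exceeds such shares, and nothing is read from it. At an unadjusted p under 0.05 were 5 of the 12 limma tests and 3 of the 6, all of Rbm3 or Srsf5. The tests of an organ share its fetal arrays. Lungs of 10% oxygen gave 0 calls in 6 tests against F21, with limma and with the methods' t-test alike, and 0 of these were at an unadjusted p under 0.05. Successive newborn ages gave 0 calls in 15 limma tests, of which 2 were at an unadjusted p under 0.05, both of Srsf5. Apart from 6 h against 2 h in room air, few probe sets passed between successive ages at all (0.0721% from 6 h to 12 h, 0.0866% from 2 h to 6 h in 10% oxygen and 0.0176% in liver). For the change with birth, none of 6 limma tests between oxygen levels passed (1 at an unadjusted p under 0.05, Srsf5 at 2 h). Between lung and liver none of 6 passed either (0 at an unadjusted p under 0.05). Few probe sets passed in these comparisons at all, 0.476% at 2 h and 0.0144% at 6 h between oxygen levels, and 0.929% and 0.196% between organs. Between oxygen levels at 1 age, 2 of 9 tests passed, Rbm3 and Srsf5 at 2 h, an age at which 16.8% of all probe sets passed. At F21 and 6 h, where no member passed, the share of all probe sets was 7.13% and 5.80%. The tests at 2 h share the arrays of room air with those of the change from F21. Between lung and liver at F21, 0 of 3 tests passed with limma (1 at an unadjusted p under 0.05, Srsf5), against 28.0% of all probe sets.

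**Figure D4:**
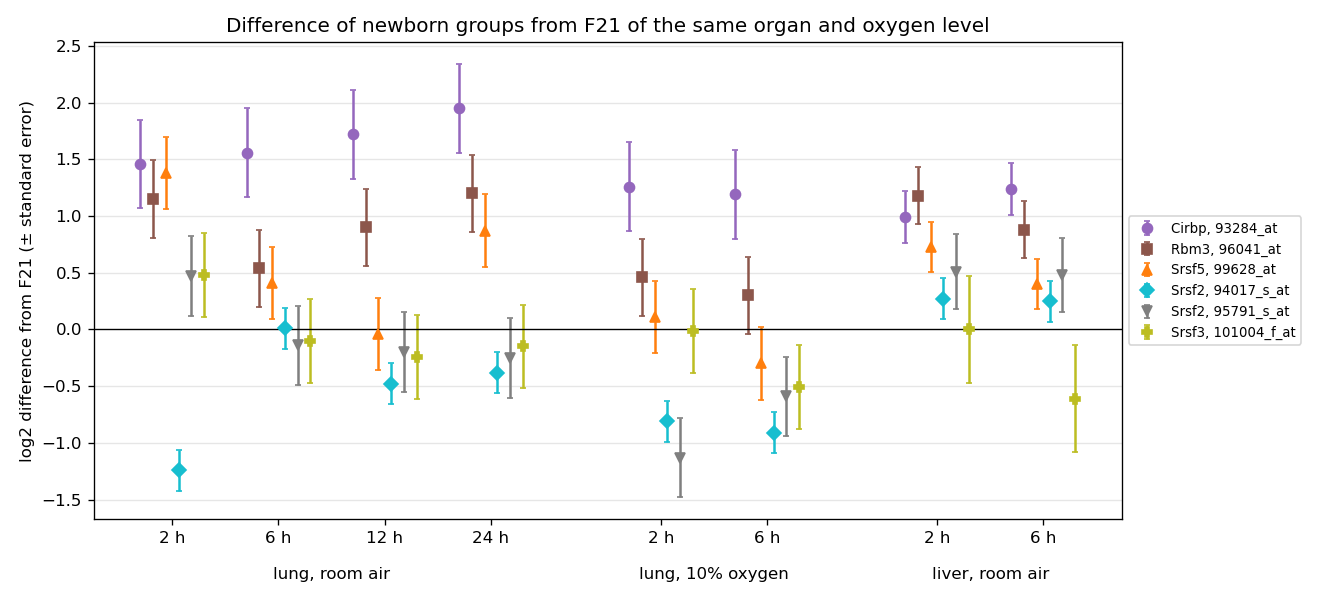
Log2 difference of each newborn group from F21 of the same organ and oxygen level, with its standard error, for 6 member probe sets. Cirbp lies above 0 in all 8 comparisons (0.99 to 1.95), while the bright Srsf2 probe set (first of its 2) is at -1.24 in room-air lung at 2 h and at 0.27 in liver.

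Across the 24 lung arrays, Rbm3 followed Srsf5 (r = 0.62) and Cirbp (r = 0.53) on log2 signals, and the bright Srsf2 probe set ran against Cirbp (r = -0.51), Rbm3 (-0.53) and Srsf5 (-0.49). These are descriptions over arrays that share ages and oxygen levels. The probe sets whose log2 signals were most like that of Cirbp over the same arrays were those of Inpp5k, an inositol phosphatase (r = 0.855), Csrp1, a LIM domain protein of the cytoskeleton (0.847), and Elovl5, a fatty acid elongase (0.841). Most like the bright Srsf2 probe set were Rpl41 and Rpsa, both of the ribosome (0.796 each), and Smarcad1, a chromatin remodeler (0.789).

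Other genes of the splicing machinery were examined in room-air lung at 2 h, where 4.24% of all probe sets passed. The shares were 10% of other SR proteins, 14.3% of their kinases and transport factors and 10% of hnRNPs. They were 11.9% of the core spliceosome and 0% of other RNA-binding proteins. With 10 SR proteins and 7 kinases tested, a single call already exceeds 4.24%. The calls of hnRNPs went both ways, and nothing is read from these shares. Of 10 other SR proteins tested, 0 rose and 1 fell, with a median log2 difference of -0.17, beside 0.021 over all tested probe sets. The 1 was Srsf6, an SR protein of alternative splicing, which went from 624 ± 141 (SD, n = 3) at F21 to 237 ± 28.4. Its log2 difference was -1.38 (standard error 0.32, limma adjusted p = 0.0129), a call lost without the third fetal array (-1.21, adjusted p = 0.0854) or the third 2 h array (-1.28, 0.0724). Srsf6 also fell in 10% oxygen, by log2 1.23 at 2 h (adjusted p = 0.0344, up to 0.131 and not passing in 5 of 6 fits without 1 array) and by 1.36 at 6 h (adjusted p = 0.0113, and 0.0735 without the first 6 h array). In liver its differences of log2 -0.44 and -0.58 did not pass (adjusted p = 0.539 and 0.331).

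Of 7 kinases and transport factors of SR proteins, 1 fell, Clk3, a kinase of their tails. Its signal was 215.6 ± 6.56 (SD, n = 3) at F21 and 128.3 ± 31.2 at 2 h in room air. The log2 difference was -0.78 (limma adjusted p = 0.0263) and was lost in 5 of 6 fits without 1 array, with adjusted p-values up to 0.175. The median of the group was log2 -0.28. Of 20 hnRNPs, which often oppose SR proteins, 1 rose and 1 fell, with a median of -0.06. Hnrnpk rose by log2 1.23 (adjusted p = 0.0257), which reached 0.154 and did not pass in 4 of the 6 fits that omitted an array. Ewsr1, an RNA-binding protein of the FET family, fell by log2 0.93, from 751 ± 9.08 to 398 ± 65.8 (adjusted p = 0.00577).

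Of 42 genes of the core spliceosome, 0 rose and 5 fell in room-air lung at 2 h, with a median log2 difference of -0.14. Txnl4a, a protein of the U5 particle, had a log2 difference of -1.75 (standard error 0.33, limma adjusted p = 0.00386), from 304 ± 19.9 to 104 ± 65.3 (SD, n = 3 each). Snrpb, a core Sm protein, fell by 0.74 (adjusted p = 0.00947) but was at -0.09 after quantile normalization (adjusted p = 0.845) and at -0.24 on a second probe set that was not tested. Snrpg, another Sm protein, fell by 0.97 (adjusted p = 0.0105). Without 1 array the adjusted p of Txnl4a reached 0.0329, that of Snrpb 0.0585 and that of Snrpg 0.0816. At 6 h none of the 42 passed, with Txnl4a and Snrpb both at log2 0.03 from F21. In 10% oxygen Txnl4a was at 0.04 and Snrpb at 0.01 at 2 h. The differences between oxygen levels in their change at 2 h did not pass (log2 -1.79, adjusted p = 0.0985, and -0.75, adjusted p = 0.162). Snrpg did not follow Txnl4a and Snrpb. Its mean in room air was 647 at F21 and still 450 at 6 h. In 10% oxygen it was 867 at F21, 526 at 2 h and 409 at 6 h. The fall at 6 h passed (log2 -1.08, limma adjusted p = 0.0035), but not against fetal lungs of room air. Lsm2 and Prpf6, the other calls, also had lower means in 10% oxygen at 2 h than at F21 (135 against 209 and 231 against 317), without passing. Of 20 other RNA-binding proteins, 0 passed.

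In lungs of 10% oxygen the same groups gave calls on the low side alone. At 2 h and 6 h, 4 and 4 of 20 hnRNPs fell, 2 and 4 of 42 spliceosome genes, and 1 and 2 of 10 other SR proteins. As shares these were 20% and 20%, 4.76% and 9.52%, and 10% and 20%, beside 2.65% and 6.31% of all probe sets. Their median log2 differences at 2 h were -0.37, -0.50 and -0.38, beside -0.017 over all tested probe sets. Beside them 5 and 7 of 15 tested proliferation genes fell, with medians of -1.14 and -1.58, and whether the splicing genes moved with the share of dividing cells was not tested. Against fetal lungs of room air in place of those of 10% oxygen, the differences of Hnrnpm at 2 h, Ewsr1 and Ddx39b at 6 h and Prpf8 at both ages turned positive (log2 0.14 to 0.39). Most calls of these groups also depended on single arrays. Without 1 array, Prpf8 was lost in 6 of 6 fits at 2 h and 5 at 6 h. U2af2 was lost in 5 at both ages, and Srsf9 and Ddx39b in 5 at 6 h. Hnrnpd was lost in 4 at both ages, Hnrnpm and Pcbp1 in 4 at 2 h, and Hnrnph1 in 4 at 6 h. Hnrnph1 at 2 h and Hnrnpa2b1 and Snrpg at 6 h held in all 6, and Ewsr1 at 6 h was lost in 1. In liver 0 of 10 other SR proteins, 0 of 7 kinases, 0 of 16 hnRNPs and 0 of 43 spliceosome genes passed at 2 h or 6 h. Rbm38, an RNA-binding protein of the p53 response, rose in liver at 6 h by log2 0.66 (limma adjusted p = 0.0446), a call lost in all 6 fits without 1 array (0.0828 to 0.136).

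Heat shock genes, which respond to warmth as Cirbp and Rbm3 do to cooling, were examined beside them. Of 13 tested in room-air lung at 2 h, 0 rose and 1 fell, with a median log2 difference of 0.07, where 4.24% of all probe sets passed. Hspa8, the constitutive Hsp70, fell there by log2 0.72 (limma adjusted p = 0.0304, and 0.066 to 0.136 in the 6 fits without 1 array). In liver Hspa8 went from 1316 ± 129 (SD, n = 3) at F21 to 684 ± 92.5 at 2 h and 700 ± 209 at 6 h. It fell by log2 0.95 at both ages (adjusted p = 0.0394 and 0.0283, lost in 6 and 5 of 6 fits without 1 array, up to 0.142 and 0.113). Hsph1, a co-chaperone of Hsp70, fell in liver at 6 h by log2 1.47 (limma adjusted p = 0.0440, lost in 5 of 6 such fits, up to 0.148). Of all probe sets in liver, 0.913% passed at 2 h and 1.84% at 6 h. The median of the 11 heat shock genes tested in liver was log2 -0.48 at 2 h and -0.75 at 6 h, beside 0.003 and -0.004 over all tested probe sets. In lung of 10% oxygen Hspa8 was at log2 0.01 at 2 h and -0.16 at 6 h. There, where 6.31% of all probe sets passed at 6 h, 1 of the 13 heat shock genes rose at that age and none fell. It was Hspa1a, an inducible Hsp70, named here after its values were seen, which went from 53.0 ± 8.82 (SD, n = 3) at F21 to 152 ± 42.7. Hspa1a rose by log2 1.5 (standard error 0.33, limma adjusted p = 0.00789), a call that held in all 6 fits without 1 array (up to 0.0405) but not against fetal lungs of room air (log2 1.0) or in a fit of only the groups compared.

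**Figure D5:**
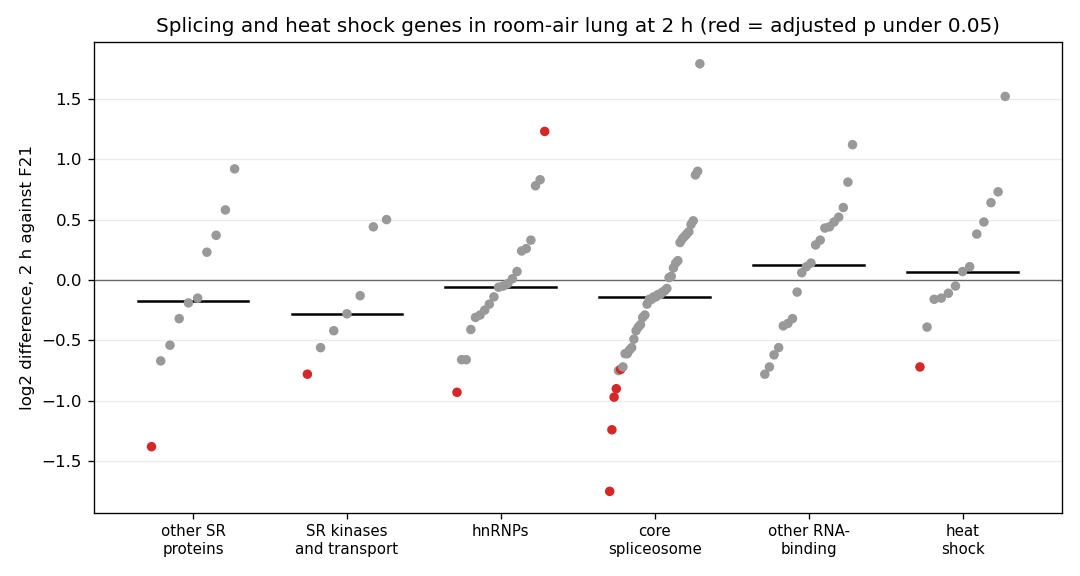
Log2 difference between 2 h and F21 in room-air lung (vertical axis) for the tested genes of 6 groups of splicing, RNA-binding and heat shock genes, 1 point per gene, red where the adjusted p was under 0.05, with a black line at the median. The medians lie between -0.28 and 0.13, and 9 of the 10 red points are below 0.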

How the data were processed

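RNA of whole lung and liver was hybridised to 33 1-colour Affymetrix MGU74Av2 arrays. The authors computed 1 MAS5 signal intensity per probe set and scaled each array to a target intensity of 100, and these linear values are those deposited. The series table held 12488 probe sets, of which 66 controls were left out, and gene names came from the platform annotation (10855 probe sets with 1 symbol, 396 with several and 1237 with none). A floor of 10 was set on the intensities before log2. Probe sets in the top 40% of an array on at least 3 arrays of a fit were compared with limma 3.58.1 in R 4.3.3 (lmFit and eBayes with trend), with Benjamini-Hochberg adjustment over all tested probe sets and a threshold of 0.05. Lungs (24 arrays), livers (9) and both organs were fitted separately, for 21 comparisons in all, and the script was tested on simulated data. The members and gene lists were chosen with earlier results of these data known. Cirbp and Srsf2 were tested in no comparison, although tests had been planned for some, because the fetal lungs that set their choice enter them. From the other gene lists, genes with the smallest p past the threshold in room-air lung at 2 h and in liver were named. Alternatives were another floor, pseudocount, normalization, filter, set of arrays, baseline and test, array weights, a replicate block, the Gapdh ratio as a covariate and the omission of each array. The number of arrays limits the precision.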

Additional observations from a re-analysis of the deposited data

Results flagged for a closer look

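Ewsr1, an RNA-binding protein of the FET family, changed differently in lung and liver at 2 h. In room-air lung its log2 difference from F21 was -0.93, and in liver it was 0.47 (limma adjusted p = 0.25), where the signal was 562 ± 49.1 (SD, n = 3) at F21 and 780.5 ± 81.2 at 2 h. The change in lung minus that in liver was log2 -1.40 (standard error 0.25, limma adjusted p = 0.00343), and this test of the difference between the organs drew attention to it. Of 7640 probe sets, 0.929% passed in this comparison. Ewsr1 passed in all 9 other settings run and in all 12 fits without 1 array, where the limma adjusted p was 0.00306 to 0.0168. These fits reuse the arrays on which the gene was picked, so that they are no separate support.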

How the results depend on the processing

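Among the tested members, newborn lung of room air against F21 gave 1 call, and 2 with a pseudocount of 16, quantile normalization, a filter on the median in the top 30% or a fit of only the groups compared, 3 with the Gapdh ratio as a covariate, 4 with array weights, 0 with the methods' t-test at an unadjusted p under 0.01 or after Benjamini-Hochberg, and 0 to 1 without 1 array. Newborn liver gave 1 call, and 0 after quantile normalization, with no filter, in a fit of only the groups compared or with the methods' t-test after Benjamini-Hochberg, and 0 to 2 without 1 array. Successive newborn times gave 0 calls, and 2 with array weights. Oxygen levels at the same age gave 2 calls, 1 with no filter or in a fit of only the groups compared, 0 with the methods' t-test in either form, and 0 to 2 without 1 array. Lung against liver at F21 gave 0 calls, and 0 to 1 without 1 array. The cause was not tested. Lungs of 10% oxygen against F21 and both kinds of difference in change gave 0 in every alternative run, and the methods' t-test was not run for the latter. Replicate numbers did not pair the arrays (mean r of deviations 0.001 over 84 pairs of the same number, -0.152 to 0.275, with 9 of 24 lung arrays correlating best with their own number), and with a replicate block liver gave 2 calls and oxygen levels 1. Against fetal lungs of room air, 10% oxygen turned the log2 difference of Hnrnpm at 2 h to 0.15, Ewsr1 at 6 h to 0.14, Prpf8 at 2 h to 0.17 and at 6 h to 0.18, and Ddx39b at 6 h to 0.39. In a fit of only the groups compared, probe sets called over the whole array went from 184 to 51 and from 437 to 85 in 10% oxygen at 2 h and 6 h, from 40 to 0 and from 71 to 149 in room air at 24 h and 6 h, and between oxygen levels from 494 to 202 at F21 and from 402 to 65 at 6 h.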
